A study of Mus musculus with 12 samples.

Results

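The comparison described here is that of spleens from ovalbumin-injected and saline-injected mice taken on day 28. It covers 6 of the 12 arrays of the study, 4 labelled OVA and 2 labelled normal saline. Ovalbumin (OVA), a protein of egg white, serves as an allergen in mouse models. The mice were females of 8 weeks, and all of them received 3 intraperitoneal injections, on days 1, 3 and 5, of OVA at 0.05 mg per day or of normal saline. Blood IgE against OVA was determined first, and mice with a high level of it went on to the arrays, so the OVA spleens came from selected responders. The other 6 arrays, 4 OVA and 2 saline, came from spleens taken on day 14. The strain is not given in the sources used here. Small RNA was measured with 1 array per sample, on total RNA isolated by a method that retains small RNAs. The labels number the arrays within a group and tie none of them to a mouse, so p-values measure the spread between arrays, which may be technical.

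MicroRNAs, the small RNAs that such arrays are built to measure, are short RNAs that guide Argonaute proteins to messenger RNAs with a matching site, which lowers the output of those messages. The spleen filters blood and is a site where B and T lymphocytes meet antigen, and spleen RNA is a mixture from lymphocytes, myeloid cells, red cell precursors and stroma. Sensitisation to a protein allergen leads B cells, with help from T cells, to switch to IgE. In RNA from whole spleen, a smaller number of cells of one type and less RNA per cell cannot be told apart.

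The table holds 36249 probe sets, each known only by a number. No table used here pairs these numbers with a miRNA, so neither names, sequences nor cell type markers can be given, and the labelled tissue was not checked against markers. Probe sets with the same values on all 12 arrays were taken as 1 measurement, called a profile, which left 25112 profiles. Members of the comparison were the profiles whose log2 intensity averaged 1 or more over the 6 day 28 arrays. There were 2506 of them, 9.98% of all profiles, standing for 5429 probe sets. Of these, 1013 were bright, with a mean log2 of at least 4. A level threshold lets a profile in through its high group: 217 members had a saline mean under 1, of which 48 were called higher in OVA, and 61 had an OVA mean under 1, of which 3 were called lower. Within 0.1 log2 units of the threshold, 117 profiles lay inside, of which 3 were called, and 145 lay outside, of which 7 were called. At the threshold for bright profiles, 29 lay within 0.1 inside, of which 3 were called, and 21 outside, of which 7 were called.

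Small RNA profiles differed broadly between OVA and saline spleens at day 28, and in the deposited values more of them were higher than lower in OVA. Of the 2506 members, 305 were higher and 117 lower, at a Benjamini-Hochberg adjusted p under 0.05 in limma, a linear model with moderated variances fitted to all 12 arrays. The higher ones were 12.2% of the members against a background of 2.88% of all profiles tested, and the lower ones 4.67% against 1.16%. Together these 422 were 16.8% of the members, against 4.04% of the 11771 profiles tested in the whole table. The tested profiles below the members' level threshold, 9265 in number, were called in 0.572%. The higher profiles stood for 1498 probe sets and the lower for 239. Higher profiles had a median log2 fold change of 1.25, a 2.38-fold difference, with quartiles of 0.94 and 1.73. Among the lower it was -1.03, a 2.04-fold difference, with quartiles of -1.28 and -0.81. A difference of at least 1 log2 unit was seen in 214 of the higher and 64 of the lower, and one of at least 2 in 47 and 3. The median log2 fold change was 0.03 over all members and 0 over all profiles tested. The 422 are not 422 separate measurements: when profiles within 0.25 log2 units of each other on every array were joined, 289 groups of higher and 103 groups of lower profiles were left, the largest of 5 profiles.

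**Figure D1:**
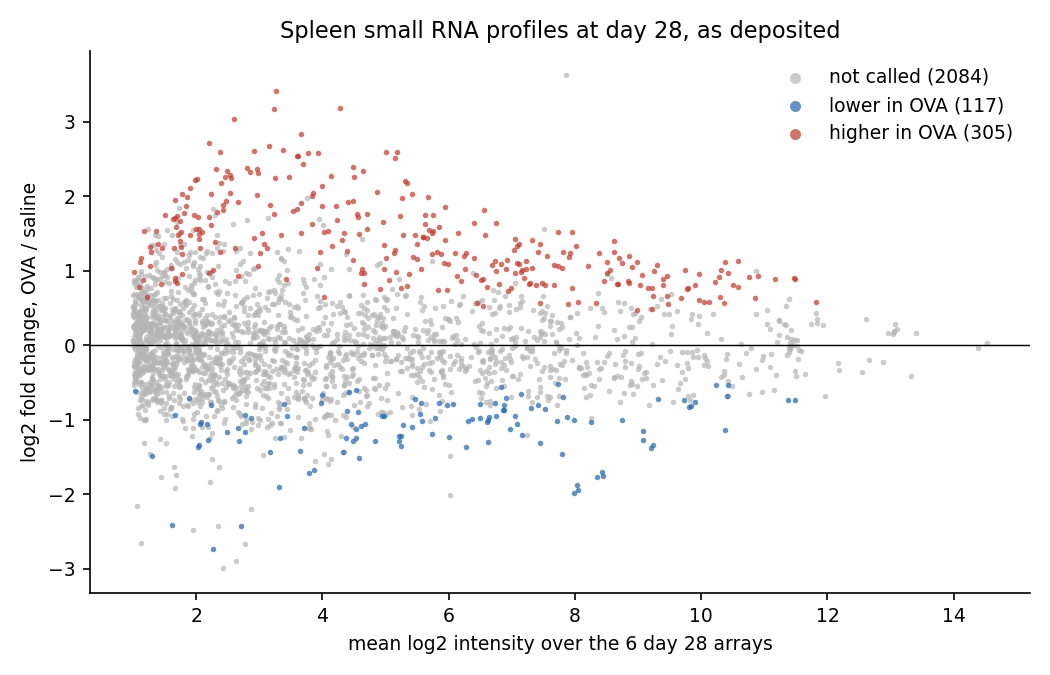
Log2 fold change of OVA over saline at day 28 (vertical) against the mean log2 intensity over the 6 day 28 arrays (horizontal), 1 point per member profile, as deposited. The 305 profiles called higher (red) and 117 called lower (blue) lie at all levels from 1 to above 10, and 2084 (grey) were not called.

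Both directions were found at every level of intensity, and the share called was highest in the middle and upper range. Between log2 levels of 1 and 2, 41 of 785 profiles were higher and 5 lower, 5.86% in all. The members' threshold shapes the split at low levels, since profiles can enter through 1 arm. Over all members, 48 higher calls had a saline mean under 1 and 3 lower calls an OVA mean under 1. The share called rose to 13.6% of 708 between 2 and 4, 24% of 430 between 4 and 6, 31.6% of 301 between 6 and 8 and 33.3% of 171 between 8 and 10. Of the 111 profiles at 10 or above, 19 were higher and 6 lower, 22.5% in all. The median SE of a log2 fold change was 0.29 in the lowest of these ranges and 0.14 in the highest, so smaller differences could be called among abundant small RNAs. The median size of a called difference was 1.38 log2 units between levels 1 and 2, 1.72 between 2 and 4, 1.28 between 4 and 6 and 0.80 at 10 or above. The brightest profile called higher had a mean log2 of 11.82 and a log2 fold change of 0.58 (limma adjusted p = 0.031). The brightest called lower had a mean log2 of 11.48 and a log2 fold change of -0.73 (limma adjusted p = 0.037).

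In all 422 called members the 4 OVA arrays lay on one side of both saline arrays. Such separation was common at day 28, with 665 members entirely higher and 472 entirely lower in OVA, 45.4% of the members against 24% of all profiles tested (13.1% higher and 10.9% lower). Of these, 715 were not called. With 2 saline arrays the count of calls rested on each of them. It was 117 without saline replicate 1 (87 higher, 30 lower) and 239 without saline replicate 2. Of the OVA arrays, replicate 3 (246 calls without it) and replicate 4 (264 without it) moved it most, and without both of them 74 members were called, 65 higher and 9 lower. All 422 kept the sign of their difference without replicates 3 and 4. This was fixed in advance, since in each of them the 4 OVA arrays lay on one side of both saline arrays.

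The OVA spleens fell into 2 pairs of arrays that differed in the size of the same change. For the 305 higher profiles, the median log2 difference from the saline mean was 1.01 in OVA replicate 1, 1.06 in replicate 2, 1.48 in replicate 3 and 1.45 in replicate 4. For the 117 lower profiles it was -0.82, -0.80, -1.22 and -1.26. Replicates 3 and 4 were thus further from saline in both directions. The profiles were called on these same arrays, and without replicates 3 and 4 the count of calls was 74. Their choice therefore favours this order. They were the highest pair of OVA arrays in 239 of the 305 higher profiles (78.4%) and the lowest pair in 85 of the 117 lower ones (72.6%). Among members not called, they were the highest pair in 19% and the lowest in 35.7%, and among all profiles tested each order held in 19.8%. Across the 1013 bright profiles, Pearson r was 0.993 between OVA replicates 1 and 2, 0.993 between 3 and 4, and 0.972 to 0.981 between the pairs. With the saline arrays, replicates 1 and 2 correlated at 0.956 to 0.965 and replicates 3 and 4 at 0.903 to 0.910, while the saline arrays correlated at 0.986 with each other. These correlations are across profiles of shared arrays and are descriptions. Within the higher profiles the median SD was 0.32 among the 4 OVA arrays and 0.14 among the 2 saline arrays. Within the lower profiles it was 0.28 and 0.22, against 0.26 in each arm for members not called. A call favours a small spread within groups, and an SD of 2 arrays is imprecise. These SDs therefore do not show which arm varied more.

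**Figure D2:**
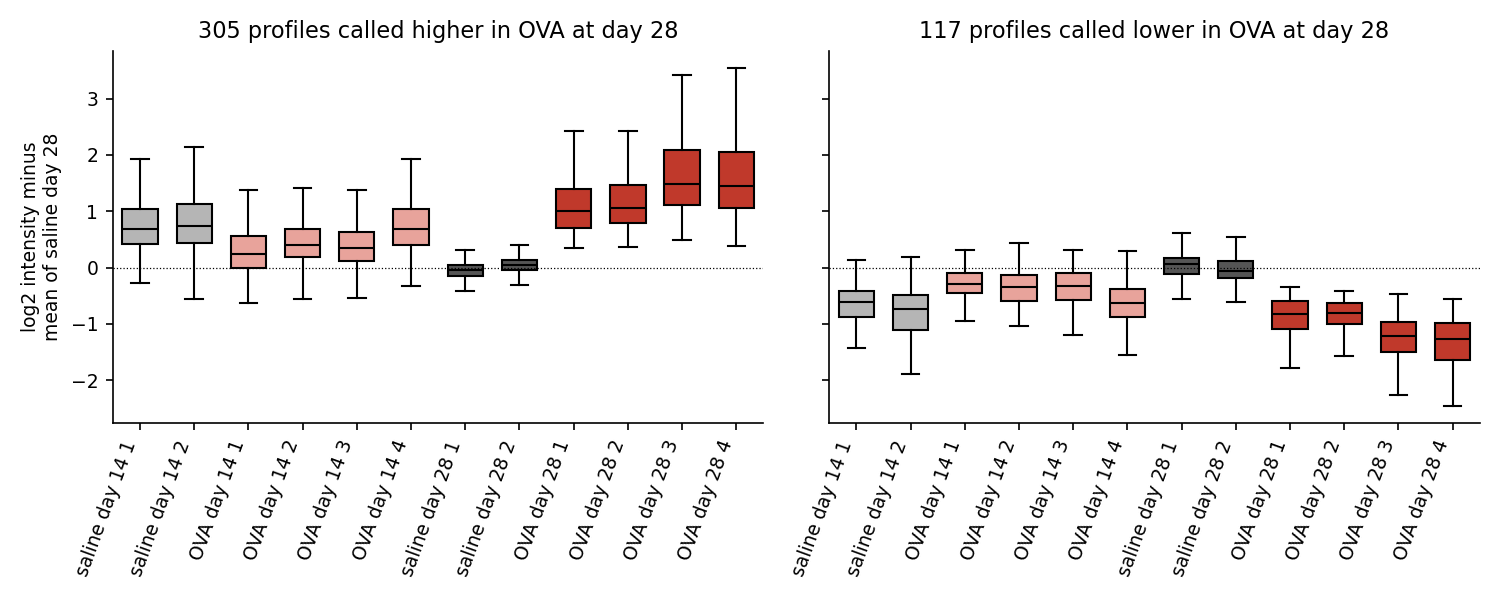
Log2 intensity minus the mean of the saline day 28 arrays (vertical) for the profiles called higher (left) and lower (right) at day 28, with 1 box per array (median, quartiles, whiskers to the furthest value within 1.5 interquartile ranges). OVA day 28 replicates 3 and 4 lie furthest from saline day 28 in both panels, and most day 14 boxes lie between the day 28 arms.

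The day 14 arrays lay mostly between the day 28 arms in these profiles. They entered the fit through the pooled spread and the level filter, and a fit to the 6 day 28 arrays alone called 368 members, 304 of the 422 among them. For the higher profiles, the median difference from the day 28 saline mean was 0.69 and 0.75 in the saline day 14 arrays and 0.24 to 0.69 in the OVA day 14 arrays. For the lower profiles it was -0.60 and -0.74 in saline and -0.63 to -0.29 in OVA. In 158 of the 305 higher profiles all 4 OVA day 28 arrays lay above the other 8 arrays, and in 136 both saline day 28 arrays lay below the other 10, with 48 profiles in both counts and 59 in neither. In the 117 lower profiles the counts were 35 for OVA below all others and 53 for saline above all others, with 3 in both and 32 in neither. For comparison, OVA day 28 lay above all others in 2.26% and saline day 28 below all others in 2.40% of the members not called (2.27% and 2.97% of all profiles tested). OVA day 28 lay below all others in 0.864% and saline day 28 above all others in 3.79% of the members not called (0.688% and 2.47% of all profiles tested). Selection on the day 28 arrays favours such positions.

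Among the bright profiles, the probe sets named here are the largest differences in each direction that were called both in the fit to the whole table as deposited and after quantile normalization of the bright profiles, which sets the distribution of intensities equal on all 12 arrays. They are ranked by the deposited values, in which probe set 20526885 had the largest higher difference by this rule. Both named higher probe sets, 20526885 and 20511357, had day 28 saline means under 4 (2.15 and 3.28). They thus passed the bright threshold through their OVA arrays. How many bright profiles passed it through 1 arm, in either direction, was not counted. The largest higher log2 fold change after normalization, 3.58, belonged to another profile, not called in the fit to the whole table. The log2 intensity of 20526885 in the OVA arrays was 4.55, 5.35, 5.57 and 5.88 for replicates 1 to 4. In the saline arrays it was 2.73 and 1.58. The arms did not overlap, and the saline arrays differed from each other by 1.15 log2 units, close to the range of 1.33 over the OVA arrays. The fold was 9.11 (log2 fold change 3.19, SE 0.76, limma adjusted p = 0.034), and after quantile normalization it was 5.70 (log2 fold change 2.51, SE 0.80, limma adjusted p = 0.026). As deposited, its call was lost without OVA replicate 2, 3 or 4 (limma adjusted p = 0.064, 0.094 and 0.09), without saline replicate 1 (0.096) and without saline replicate 2 (0.24). The call was also lost with 1 added to each intensity before log2 (log2 fold change 2.91, limma adjusted p = 0.072). The same held with an intensity trend and robust variances (limma adjusted p = 0.11). Its saline values were low, so the exact fold is uncertain. On day 14 its arms overlapped, at 4.20 ± 1.56 (SD, n = 4) in OVA and 5.05 ± 0.84 (SD, n = 2) in saline.

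Probe set 20511357 gave the most stable of the named differences. It stood at 5.18, 5.50, 6.29 and 6.53 in OVA replicates 1 to 4 and at 3.36 and 3.20 in saline. The arms were separated by more than the range within either of them. The fold was 6.04 (log2 fold change 2.59, SE 0.33, limma adjusted p = 0.0015), and 4.92 after quantile normalization (log2 fold change 2.30, SE 0.36, limma adjusted p = 0.0013). It was called in all 21 other settings, with log2 fold changes of 2.06 to 2.83. Its day 14 level was 4.14 ± 0.32 (SD, n = 4) in OVA and 4.82 ± 0.31 (SD, n = 2) in saline, between the day 28 arms.

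In the lower direction, probe set 20502123 heads a profile shared by 9 probe sets. It stood at 7.75, 7.86, 6.76 and 6.91 in OVA replicates 1 to 4 and at 9.50 and 9.12 in saline. Each OVA array was lower than both saline arrays, and replicates 3 and 4 were lower than replicates 1 and 2. The fold was 3.96 (log2 fold change -1.99, SE 0.33, limma adjusted p = 0.006), and 3.95 after quantile normalization (log2 fold change -1.98, SE 0.36, limma adjusted p = 0.0019). Without saline replicate 1 the limma adjusted p was 0.075, and without OVA replicates 3 and 4 it was 0.051. Probe set 20523392, alone in its profile, followed it within 0.25 log2 units on all 12 arrays, as did 1 further profile, and all of them were called. It stood at 7.95, 7.84, 6.86 and 6.92 in OVA and at 9.51 and 9.16 in saline, 3.85-fold lower (log2 fold change -1.94, SE 0.32, limma adjusted p = 0.006). Without saline replicate 1 its limma adjusted p was 0.072. The named lower probe sets are therefore close to 1 measurement.

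**Figure D3:**
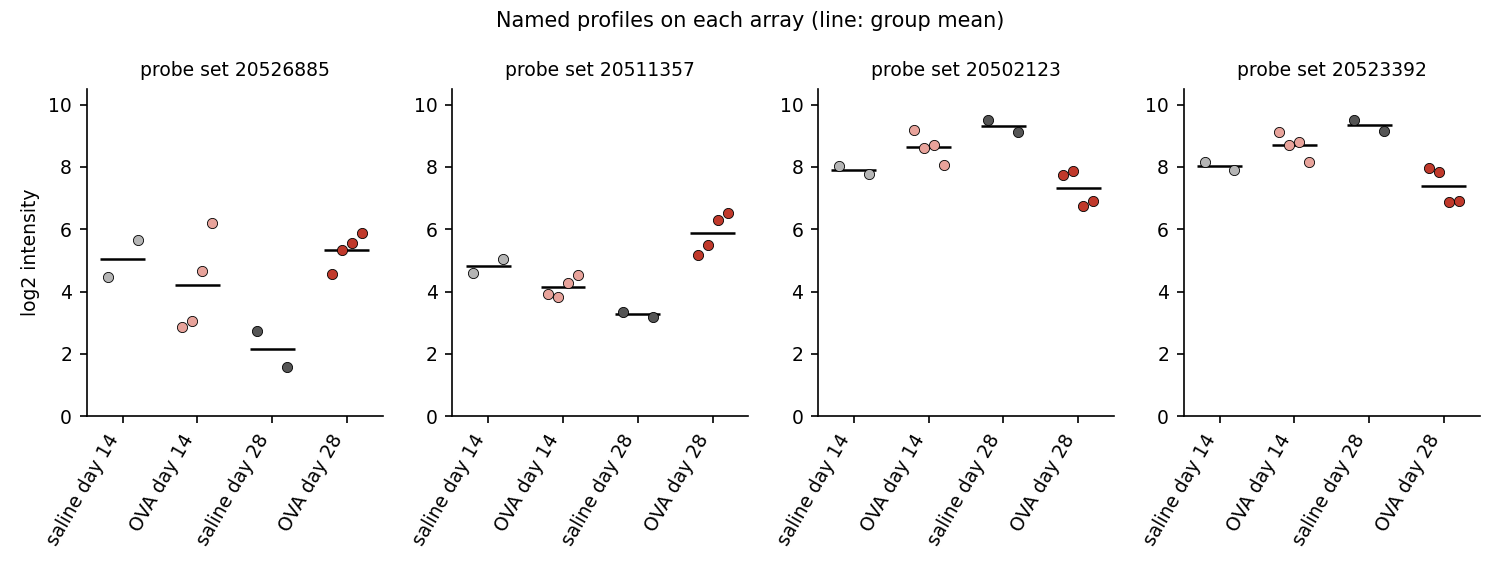
Log2 intensity (vertical) of the 4 named probe sets on each of the 12 arrays, by group, with a line at each group mean. For 20526885 and 20511357 the OVA day 28 points lie above the saline day 28 points, and for 20502123 and 20523392 below them. The day 14 group means lie between the day 28 group means for each, while single day 14 arrays of 20526885 lie above them.

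Outside the bright range, larger differences occurred. Among the 10 largest higher differences, log2 fold changes ran from 2.59 to 3.41, and 8 of the 10 had a mean log2 level under 4. The largest belonged to a profile with a mean log2 of 4.40 in OVA and 1.00 in saline. Profiles shared by 15 and by 11 probe sets were among these 10, with log2 means of 3.11 and 4.04 in OVA and 0.40 and 1.38 in saline. Their saline arms lay near the floor of the arrays, so the exact size and order of these differences are uncertain. Among the 10 largest lower differences, log2 fold changes ran from -2.74 to -1.72. The 3 largest of these, each from a single probe set, had OVA means of 1.35, 1.90 and 0.81, near that floor. The next, at a mean log2 of 7.98, was that of 20502123.

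The share of profiles called higher in OVA was larger among those shared by many probe sets. Arrays of this type can carry a probe set for the same small RNA from each of several species, and whether that holds for these profiles was not tested, since the array design is not given in the sources used here. Of the 77 bright profiles shared by 10 or more probe sets, 41 were higher (53.2%) and 4 lower. Of the 703 bright profiles from a single probe set, 92 were higher (13.1%) and 60 lower (8.53%). Profiles of 2 to 4 and of 5 to 9 probe sets lay between them, with 23% of 161 and 33.3% of 72 higher. The order was similar within levels. Between log2 levels of 4 and 8, 55.3% of 38 profiles with 10 or more probe sets were higher, against 13.7% of 525 single ones. At 8 or above, the shares were 51.3% of 39 and 11.2% of 178. These classes were formed after earlier results were known, and the difference between them was not tested.

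The shift of the widely shared profiles was present on each OVA array. Their median log2 difference from the saline mean was 0.53, 0.61, 0.87 and 0.81 in OVA replicates 1 to 4, and -0.03 and 0.03 in the saline arrays. For single bright profiles the medians were -0.06, -0.04, -0.12 and -0.16 in OVA. On day 14 the median log2 fold change of the widely shared profiles was -0.19 at levels 4 to 8 and -0.17 at 8 or above. After quantile normalization of the bright profiles, 49 of the 77 were higher (63.6%) and 5 lower. Of the 703 single ones, 118 were higher (16.8%) and 160 lower (22.8%). These counts were adjusted over the 1013 bright profiles and the deposited ones over all 11771, so they are not like for like. As deposited, the lower calls among all bright profiles were 86 in the wider fit and 168 in a fit to the bright profiles alone.

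**Figure D4:**
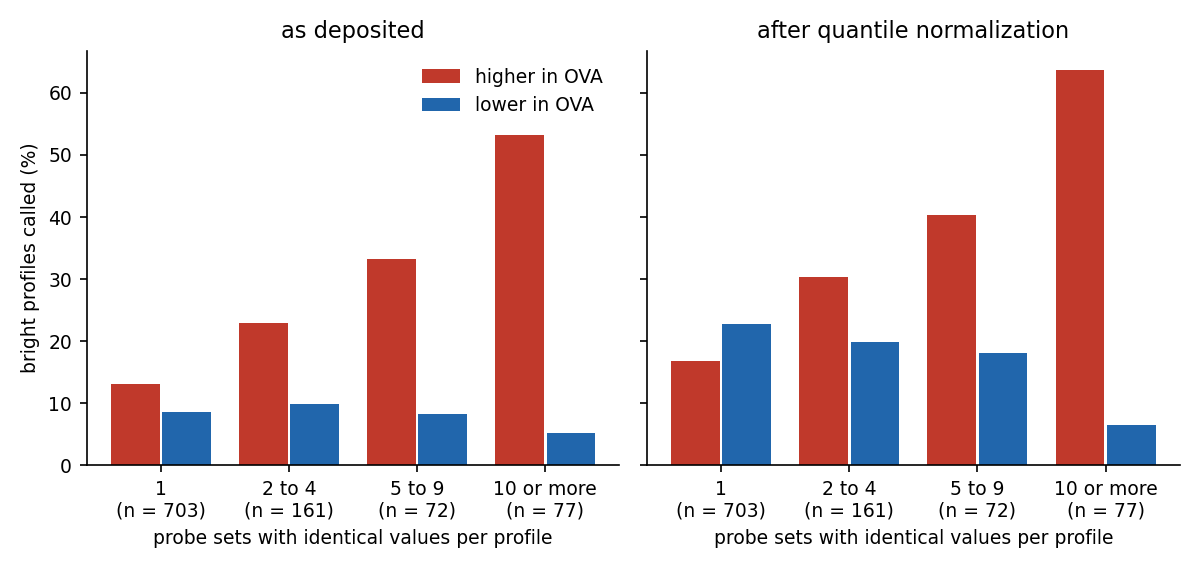
Share of bright profiles called higher (red) or lower (blue) in OVA at day 28 (vertical, percent), by the number of probe sets with identical values in a profile (horizontal, with the number of profiles), as deposited (left, adjusted over all 11771 profiles) and after quantile normalization (right, adjusted over the 1013 bright profiles). The higher share rises from 13.1% to 53.2% on the left and from 16.8% to 63.6% on the right.

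The brightness of the arrays moved with these profiles. Mean intensity over all probe sets was 47.4, 49.0, 51.7 and 51.2 in OVA replicates 1 to 4 and 41.0 and 40.9 in saline, 49.8 ± 2.0 (SD, n = 4) against 40.9 ± 0.088 (SD, n = 2). The arms did not overlap, and the exact permutation test, two-sided, gave p = 0.067, the smallest value that the 15 splits of 4 against 2 arrays can give. With each distinct profile counted once, mean intensity was 21.7, 21.8, 21.8 and 21.7 in OVA and 21.3 in each saline array (exact permutation p = 0.067). Counted once, the arms thus still did not overlap, and they differed by 0.447 intensity units in place of 8.88. Over profiles of a single probe set the order was the other way, with 18.0 to 18.4 in OVA and 18.8 and 18.9 in saline. Profiles of 10 or more probe sets held 55.2% to 58.3% of the summed probe-set intensity in OVA and 49.7% and 49.9% in saline. The median intensity over all probe sets was 1.03 to 1.09 on these 6 arrays. No scan date or array batch is given in the sources used here, and the part of array processing in the day 28 difference was not tested.

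Most bright profiles called under one scaling of the arrays were called under the other, and the balance of higher and lower calls moved. After quantile normalization, 455 of the 1013 bright profiles were called, 245 higher and 210 lower. This is 44.9% and covers all the profiles tested in that fit, so it has no separate background. The same 1013 profiles as deposited, adjusted over themselves, gave 436 calls, 268 higher and 168 lower. Of these, 408 were called in the same direction under both scalings, 28 only as deposited and 47 only after normalization, and none was called in opposite directions. The share of higher among the called bright profiles was thus 61.5% as deposited and 53.8% after normalization. The bright threshold averages more OVA than saline arrays, so it can let profiles in through a high OVA arm. How far this shaped the balance was not counted. Of the 280 bright profiles called in the fit to the whole table, 194 higher and 86 lower, all kept their call and direction after normalization. Adjustment over the 1013 bright profiles alone is less strict than over the whole table, which favours this. Normalization lowered the log2 fold changes by a median of 0.07, and 52 of the 1013 profiles changed sign. After it, higher profiles had a median log2 fold change of 0.92, with 104 of at least 1 log2 unit, and lower profiles one of -0.81, with 65.

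Over all members, 250 higher and 156 lower were called when each array was centred on the median of its bright profiles, against 305 and 117 as deposited, and 258 and 141 after quantile normalization of all tested profiles. An excess of higher profiles was thus present under each of these scalings, and its size depended on the scaling. The members' threshold also averages more OVA than saline arrays. With members set by the mean of the group means, 300 higher and 117 lower were called as deposited. Without saline replicate 1, 254 bright profiles were called after normalization (145 higher, 109 lower). Without OVA replicates 3 and 4 the number was also 254 (156 higher, 98 lower).

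**Figure D5:**
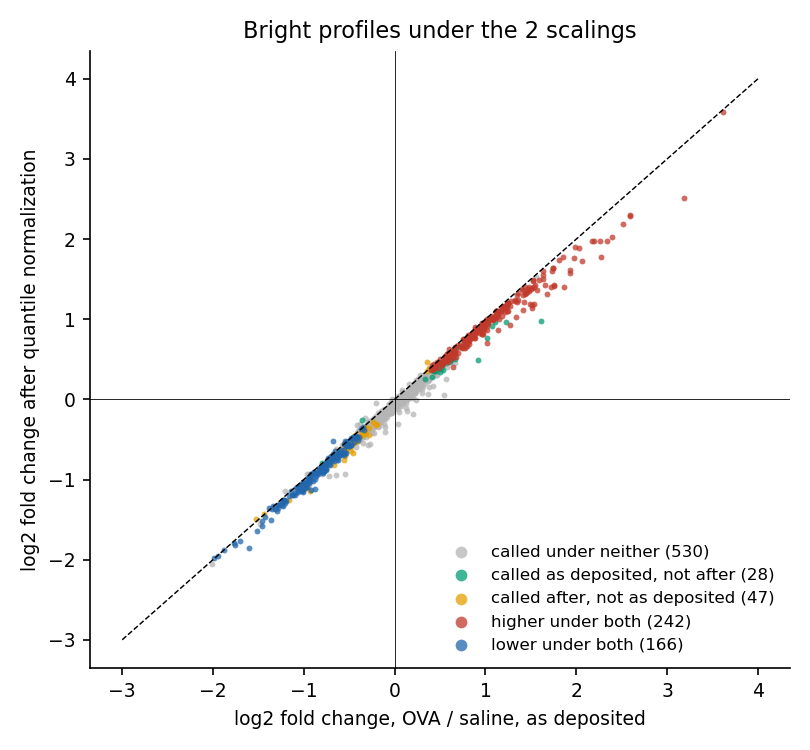
Log2 fold change of OVA over saline at day 28 for the 1013 bright profiles, as deposited (horizontal) and after quantile normalization (vertical), each adjusted over these profiles. The dashed line marks equal values, 242 profiles were called higher and 166 lower under both scalings, and most points lie slightly below the line.

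Part of the day 28 difference was itself different from that at day 14, in a test of the difference between days, which share no arrays. The OVA effect differed for 311 members (limma adjusted p under 0.05), 224 upwards at day 28 (background 2% of all profiles tested) and 87 downwards (background 0.79%). Together they were 12.4% of the members against 2.79% of all profiles tested. Of the 305 higher profiles, 211 passed this test, and of the 117 lower ones, 67, a share that their choice on the same day 28 arrays favours. A further 33 members passed it without a call at day 28. At day 14, 1 member was called (0.0085% of all profiles tested). An unadjusted limma p under 0.05 was found in 393 of the 2506 members, a count not made over all profiles tested. The median day 14 log2 fold change was -0.33 among the 305 higher profiles, of which 265 were below 0. It was 0.31 among the 117 lower ones, of which 107 were above 0. None of these higher or lower profiles was called at day 14. The split of signs among the other members was not counted, so these counts have no background. The day 14 log2 fold change of 20511357 was -0.68, so its effect moved by 3.28 log2 units between the days (SE 0.47, limma adjusted p = 0.0038). For 20526885 the difference did not pass the threshold (4.04 log2 units, SE 1.08, limma adjusted p = 0.073). The count of 311 rested on single arrays. Leaving out a day 14 saline array gave 90 (replicate 2) or 129 (replicate 1), and leaving out saline replicate 1 of day 28 gave 131. It was 186 and 203 without OVA day 28 replicate 3 or 4, and 138 without both.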

How the data were processed

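Small RNA was measured on 12 spleen arrays. Per the labels' protocols, 0.5 μg of total RNA was biotin-labelled (FlashTag kit, Affymetrix). The authors deposited a linear intensity for each probe set on each array. How they summarised, background-corrected and normalized it is not given in the sources used here, so a scaling step before deposit could have altered the fold changes.

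No pseudocount was added before taking log2. Distinct profiles with a 12-array mean log2 of at least 0.05, the median over probe sets, were fitted with limma 3.58.1 in R 4.3.3, with 1 mean per group. The number of arrays limits the precision: the fit had 8 residual and 4.75 prior degrees of freedom. P-values were two-sided and adjusted over the 11771 profiles. Data for this comparison were simulated over 11771 profiles, with 200 changed that were drawn from the members alone. Of these, 38.8% of changes of 1 log2 unit and 87.6% of changes of 2 were recovered, rates that apply to members. There were 0 to 5 and 6 to 13 false calls per run. The simulated noise was independent between profiles, so these false calls do not cover shifts that many profiles share on an array. The level thresholds, profile classes, named probe sets and alternatives were chosen with earlier results of these data known. Without miRNA names, the naming rule gave the 2 largest higher and the 2 largest lower profiles called under both scalings, by first identifier, and the miRNA lists were not applied. Alternatives covered scaling, filters, variance models, array weights, a replicate block and leaving out arrays.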

Additional observations from a re-analysis of the deposited data

Results flagged for a closer look

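The OVA effect differed between the days in 311 members when limma tested the change of effect directly. The effect of 20511357 at day 28 minus that at day 14 was 3.28 log2 units, with an SE of 0.47 and a limma adjusted p of 0.0038. For 20502123 this change was -2.73, with an SE of 0.47 and a limma adjusted p of 0.0095. For 20523392 the change was -2.62, with an SE of 0.46 and a limma adjusted p of 0.0099. For 20502123 the day 14 effect was 0.74 and for 20523392 it was 0.67, neither past the threshold (limma adjusted p = 0.72 and 0.74). These probe sets were named for a large effect at day 28, which favours a large difference between the days. Dixon's test for a single outlying array, made 10 times on the named probe sets and mean intensity in the OVA groups, found none. The highest ratio of gap to range was 0.604, for the lowest OVA day 28 array of 20526885.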

How the results depend on the processing

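Of 26 other settings for the count of 422 members at day 28, 19 gave a count within 1.5 times of it. It was 1951 with every probe set tested and counted on its own, in which shared profiles count repeatedly. It was 247 with the replicate number as a block (replicate block; 194 higher, 53 lower), and the between-day count of 311 became 437. Whether the numbers pair the arrays is not known. Over the bright profiles, deviations from group means correlated above 0.1 in 6 of 14 same-numbered pairs (-0.34 to 0.52) and 12 of 38 others (-0.62 to 0.56). This cannot settle it, since the deviations of the 2 arrays of a saline group mirror each other. The day 28 count was 74 without OVA day 28 replicates 3 and 4, and 117 to 446 when 1 array was left out. For the 455 bright profiles after quantile normalization, 17 of 20 settings stayed within 1.5 times. The count was 295 with bright set at a mean log2 of at least 6, which leaves fewer profiles to test, 254 without OVA day 28 replicates 3 and 4, and 254 to 484 with 1 array left out. For the 311 members that differed between days, 10 of 16 settings stayed within 1.5 times. The count was 138 without OVA day 28 replicates 3 and 4 and 90 to 396 with 1 array left out. Of the named probe sets, 20526885 lost its call in 9 of 21 settings (limma adjusted p of 0.0061 to 0.26), 20502123 in 2 and 20523392 in 1. For 20526885 the replicate block was among them (log2 fold change 2.38, limma adjusted p = 0.062). None changed direction, which leaving out arrays could not have brought about, since their arms did not overlap. The cause of these changes was not tested unless given. Where 1 saline array was left, its spread was taken from the pooled groups. Background correction could not be varied on processed intensities, and intensities near the floor limit the low profiles.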
